A study of Mus musculus with 6 samples.

Results

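The connexins and the markers of arterial and venous identity were examined in retinal endothelium, as 10 genes chosen by symbol from the 24421 genes of the count table: the connexins Gja4, Gja5, Gja1 and Gjc1, the arterial genes Efnb2, Bmx and Alpl, and the venous and capillary genes Nr2f2, Ephb4 and Emcn. All 10 were in the table and all 10 passed the filter on low counts, with 14362 genes tested in all. RNA came from endothelial cells isolated from retinas of mouse pups at postnatal day 7, on a mixed background of BL6 and CD1, after tamoxifen at postnatal day 1. In the Smad4-iECKO group (n = 3) both Smad4 alleles were floxed and the Cdh5-CreERT2 transgene was present, a Cre recombinase fused to an oestrogen receptor domain and driven by the promoter of VE-cadherin, so that tamoxifen deletes Smad4 in endothelial cells. In the Smad4f/f group (n = 3) the alleles were floxed and no Cre was present. The labels give the same tamoxifen protocol for both groups. They do not say whether a sample was 1 pup or several, so the tests below measure the spread between these samples, which may be technical.

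Connexins assemble into gap junction channels that couple neighbouring cells, and the endothelium of arteries is known for connexin 37 (Gja4) and connexin 40 (Gja5). Arterial endothelium carries the ligand ephrin-B2, and venous endothelium its receptor EphB4 and the transcription factor COUP-TFII, which holds back Notch signalling in veins. SMAD4 is the partner through which the BMP receptors of endothelium, ALK1 among them, reach the genome, and this pathway acts together with blood flow on arterial and venous vessels of the growing retina.

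The libraries differed in depth and in how much endothelial RNA they held. Total counts ran from 2233360 (Smad4-iECKO replicate 2) to 23164952 (Smad4f/f replicate 2). A list of 21 endothelial genes, none of them among the 10, summed to 8485, 1508 and 4890 CPM (counts scaled to library size with edgeR's TMM factors) in Smad4f/f replicates 1, 2 and 3, and to 2757, 5246 and 4665 CPM in Smad4-iECKO. All 21 were detected in every library except Myct1, which had a count of 0 in Smad4-iECKO replicate 2. Rod photoreceptor genes (10 of 10 detected in every library) summed to 4286 to 8171 CPM in Smad4f/f and 4690 to 6487 CPM in Smad4-iECKO. The RNA was therefore not from endothelial cells alone. Smad4 itself was at 109.5, 152.9 and 157.5 CPM in Smad4f/f and 128.2, 93.9 and 133.9 CPM in Smad4-iECKO, and the groups overlapped. A count per gene does not show the loss of single exons, so this level does not check the genotype labels. Each gene was therefore read on 2 scales: CPM, and endothelial-scaled CPM, in which each library is scaled so that the endothelial list has the same mean log2 level in all 6. Single genes of the list still differed on this scale. Of the 21, 4 were higher and 2 lower in every Smad4-iECKO library, against 2.28% and 0.787% of all genes tested.

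Gja4 encodes connexin 37 and lies on chromosome 4 (127311421 to 127314039, minus strand, GENCODE M21 on mm10). Its level was 140.9, 34.7 and 78.5 CPM in Smad4f/f replicates 1, 2 and 3, and 19.2, 42.8 and 34.8 CPM in Smad4-iECKO. On this scale the groups overlapped, because Smad4f/f replicate 2, the library with the least endothelial RNA, lay among the Smad4-iECKO libraries. Gja4 averaged 84.7 ± 53.4 CPM in Smad4f/f and 32.3 ± 11.98 CPM in Smad4-iECKO (SD, n = 3 each). The fitted log2 fold change was -1.41 (standard error 0.52). Scaled to the endothelial list, Gja4 was at 62.1, 86.9 and 64.3 in Smad4f/f and at 26.1, 40.9 and 29.6 in Smad4-iECKO, and each Smad4-iECKO library lay below each Smad4f/f library. The 2 group means on this scale were 71.1 ± 13.7 and 32.2 ± 7.71 (SD, n = 3 each), a ratio of 0.453.

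Adjusted over all 14362 genes (Benjamini-Hochberg), neither difference in Gja4 was called. The unadjusted p of edgeR's quasi-likelihood test was 0.0240 with TMM scaling and 0.205 with endothelial scaling, and the adjusted p with TMM was 0.99992. The exact permutation p (2-sided) of the endothelial-scaled values was 0.1 for Gja4, the smallest that 3 against 3 allows, and 1 after adjustment over all genes tested. As the groups did not overlap on that scale, this value only repeats the absence of overlap. The exact permutation p of the TMM-scaled values was 0.3. The libraries agreed within the group to 0.26 (Smad4f/f) and 0.33 (Smad4-iECKO) as SDs of log2 endothelial-scaled CPM, while edgeR's standard error for Gja4 was 0.91. The median standard error of all genes was also 0.91 under this scaling, against 0.43 under TMM. With the mean endothelial level as a covariate in place of the scaling, edgeR gave Gja4 a difference of -1.15 (log2, standard error 0.30, unadjusted p = 0.00558, adjusted p = 0.99955).

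Gja5 encodes connexin 40, the other connexin of arterial endothelium, on chromosome 3 (96904693 to 97077416, plus strand). It was at 41.1, 9.96 and 23.9 CPM in Smad4f/f replicates 1, 2 and 3 and at 10.6, 33.9 and 20.5 CPM in Smad4-iECKO. The groups overlapped, with the highest and the lowest value both in Smad4f/f. Scaled to the endothelial list it was at 18.1, 24.9 and 19.6 against 14.4, 32.4 and 17.4, with means of 20.9 ± 3.58 and 21.4 ± 9.66 (SD, n = 3 each). The log2 fold change was -0.23 with TMM scaling (standard error 0.58) and 0.028 with endothelial scaling (standard error 0.89), so neither the sign nor the absence of a difference was resolved.

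The ratio of Gja4 to Gja5 needs no scaling, since both are read in the same library. This pair was chosen after the values were seen. Gja4 counts stood at 3.43, 3.49 and 3.28 times those of Gja5 in Smad4f/f replicates 1, 2 and 3, and at 1.81, 1.26 and 1.70 times in Smad4-iECKO. The Smad4f/f libraries lay close together although their endothelial levels differed 5.63-fold, and all Smad4-iECKO libraries lay below them. As a log2 ratio of CPM this was 1.74 ± 0.039 against 0.64 ± 0.27 (SD, n = 3 each), a difference of -1.10. Put as a share, Gja4 took 77.4% (75.7 to 79.1), 77.7% (75.1 to 80.2) and 76.6% (74.3 to 78.8) of the reads of the pair in Smad4f/f. In Smad4-iECKO it took 64.4% (60.2 to 68.5), 55.8% (47.8 to 63.5) and 63.0% (59.3 to 66.6). These are exact Clopper-Pearson 95% intervals, which cover counting error only, and those of the Smad4f/f libraries overlap none of the Smad4-iECKO libraries. The shallow Smad4-iECKO replicate 2 rests on 92 reads of Gja4 and 73 of Gja5. Among the 14361 other genes tested, 0.425% had a ratio to Gja5 for which all Smad4-iECKO values lay below all Smad4f/f values, and 2.64% one for which all lay above. Of the 9 other genes described here, Gja4 and Bmx were lower in this way and none was higher. These shares cover all genes and not vascular genes alone, and the pair was picked on its values. How unusual its ratio is therefore cannot be told.

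**Figure D1:**
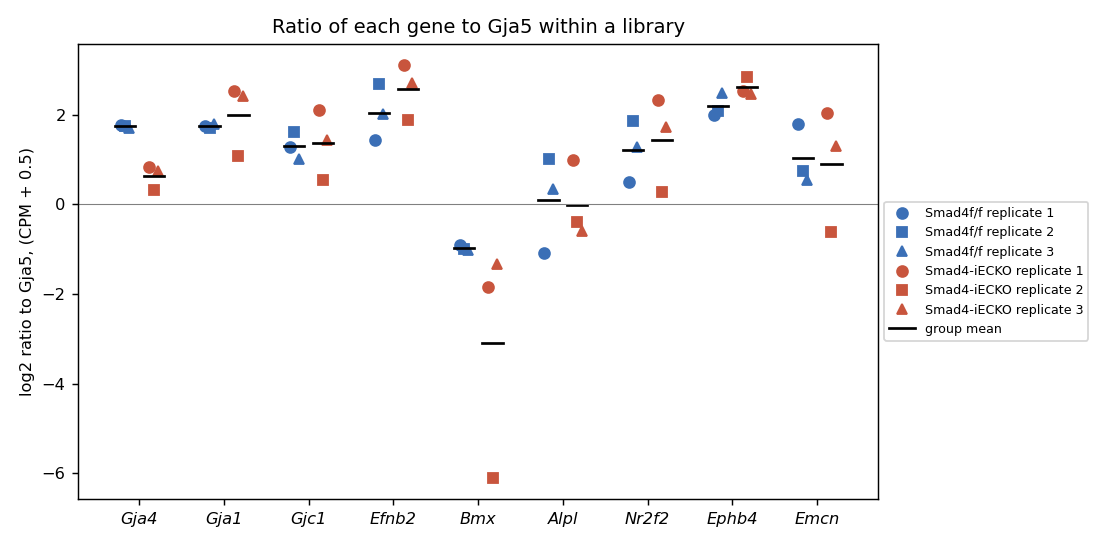
Log2 ratio of each gene to Gja5 within a library, from CPM + 0.5, with 1 point per library (blue Smad4f/f, red Smad4-iECKO, symbols for replicates) and bars for group means. The Smad4f/f points of Gja4 lie together at a mean of 1.74 and the Smad4-iECKO points lie below them at a mean of 0.64, while Bmx in Smad4-iECKO replicate 2 had a count of 0, so its point is set by the 0.5 added.

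Bmx, a TEC family tyrosine kinase used as an arterial marker, lies on the X chromosome (164192842 to 164258193, minus strand). It was at 21.6, 4.73 and 11.6 CPM in Smad4f/f replicates 1, 2 and 3, and at 2.61, 0 and 7.89 CPM in Smad4-iECKO. The count of 0 in Smad4-iECKO replicate 2 allows up to 1.39 CPM in that library (3 counts). Bmx averaged 12.6 ± 8.48 CPM in Smad4f/f and 3.50 ± 4.02 CPM in Smad4-iECKO (SD, n = 3 each). Scaled to the endothelial list the values were 9.53, 11.8 and 9.51 against 3.55, 0 and 6.71, and the groups did not overlap. That count of 0 allows up to 1.33 on this scale, also below each Smad4f/f library. The log2 fold change was -1.71 (standard error 0.92, edgeR unadjusted p = 0.0965) with TMM and -1.51 (standard error 1.00, edgeR unadjusted p = 0.132) with endothelial scaling, and neither was called after adjustment. Both fitted values moved with single libraries: they were -1.29 and -1.003 without Smad4-iECKO replicate 2, which holds the count of 0, and -2.90 and -2.38 without Smad4-iECKO replicate 3. Without Smad4f/f replicate 1 they were -1.09 and -1.56.

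The 250 bases before the start of Gja4 and Bmx, which lay lower on the endothelial scale, and of Gja5, which did not, are shown as the sequence next to the starts of these transcripts. They are from RefSeq on GRCm38.p6, 5′ to 3′ on the gene's strand, at chr4:127314040-127314289 (Gja4, minus), chrX:164258194-164258443 (Bmx, minus) and chr3:97032152-97032401 (Gja5, plus). The Gja5 window lies inside the GENCODE span of the gene (96904693 to 97077416), at a RefSeq start downstream of the GENCODE start. The bases before that GENCODE start were not searched. Capitals mark matches to 3 motifs searched on both strands, none of which contains another: CAGAC, the SMAD box bound by SMAD3 and SMAD4, GGCGCC, a GC-rich element bound by SMAD1 and SMAD5, and TGGGAA, the core bound by the Notch effector RBPJ.
Gja4: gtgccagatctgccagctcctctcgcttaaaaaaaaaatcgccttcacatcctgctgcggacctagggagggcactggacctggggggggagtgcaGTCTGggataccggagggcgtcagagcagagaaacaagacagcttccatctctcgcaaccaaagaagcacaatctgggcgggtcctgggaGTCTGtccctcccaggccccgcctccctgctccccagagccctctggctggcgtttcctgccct
Bmx: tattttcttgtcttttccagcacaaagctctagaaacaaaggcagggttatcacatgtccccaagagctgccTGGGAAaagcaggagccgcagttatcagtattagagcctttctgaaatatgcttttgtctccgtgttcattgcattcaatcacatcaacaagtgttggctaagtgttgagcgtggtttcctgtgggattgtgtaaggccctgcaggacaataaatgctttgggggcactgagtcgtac
Gja5: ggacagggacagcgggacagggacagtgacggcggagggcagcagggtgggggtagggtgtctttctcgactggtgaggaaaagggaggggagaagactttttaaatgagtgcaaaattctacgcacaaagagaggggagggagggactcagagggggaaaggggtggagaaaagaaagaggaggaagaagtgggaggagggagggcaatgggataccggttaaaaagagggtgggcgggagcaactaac

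The Gja4 window held 2 SMAD boxes in the GTCTG orientation, whose first bases lie at -154 and -64 from the start, and neither other motif. The Bmx window held 1 RBPJ core at -178, and the Gja5 window none of the 3. A promoter entry was found for 9 of the 10 genes (Alpl had 2). A SMAD box was present in 3 of these 10 entries (Gja4, Efnb2 and Nr2f2), the GC-rich element in 3 (Efnb2, Alpl and Ephb4) and the RBPJ core in 1. Among all 32851 promoter windows of this length, 42.2% held a SMAD box, 9.59% the GC-rich element and 21.6% the RBPJ core. A match is a run of letters and not evidence of binding, and a window without one says nothing of the factor.

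Gja1 encodes connexin 43, which astrocytes, Mueller glia and mural cells also express (chromosome 10, 56377330 to 56402513, plus strand). It was at 138.3, 33.6 and 83.9 CPM in Smad4f/f replicates 1, 2 and 3 and at 63.1, 72.0 and 111.1 CPM in Smad4-iECKO, with overlapping groups. Scaled to the endothelial list it was at 61.0, 84.1 and 68.8 against 85.8, 68.9 and 94.4, again overlapping. The log2 fold change was -0.052 (standard error 0.48) with TMM and 0.22 (standard error 0.90) with endothelial scaling. The log2 ratio of Gja4 to Gja1 was 0.027, 0.048 and -0.095 in the Smad4f/f libraries and -1.69, -0.75 and -1.66 in those of Smad4-iECKO, lower in every Smad4-iECKO library. The share of all genes with such a ratio to Gja1 was not computed. The ratio of Gja5 to Gja1 overlapped (-1.74 ± 0.042 and -2.001 ± 0.80 on the log2 scale, SD, n = 3 each).

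Markers of the other cells that express Gja1 were present in all libraries. The 5 astrocyte markers summed to 99.2 to 398.4 CPM in Smad4f/f and 173.4 to 695.5 CPM in Smad4-iECKO. With TMM all 5 had positive log2 fold changes, as did 4 of 6 Mueller glia and 7 of 10 mural cell markers tested. Of all 14362 genes tested 6923 were positive. The 6 Mueller glia markers summed to 785.9 to 1234 CPM in Smad4f/f and 780.2 to 1046 CPM in Smad4-iECKO, with Aqp4 at a count of 0 in Smad4-iECKO replicate 2. The 11 mural cell markers summed to 625.0 to 2866 CPM in Smad4f/f and 1118 to 2075 CPM in Smad4-iECKO, with the smooth muscle gene Cnn1 at 0 in 5 of 6 libraries. Their part in the level of Gja1, and in that of Gjc1 below, was not tested, and in bulk RNA fewer cells of a type and less RNA per cell cannot be told apart.

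Gjc1 encodes connexin 45, a connexin of mural cells, early endothelium and retinal neurons (chromosome 11, 102799579 to 102819700, minus strand). It was at 100.3, 31.3 and 48.5 CPM in Smad4f/f replicates 1, 2 and 3 and at 47.2, 49.7 and 56.4 CPM in Smad4-iECKO. The Smad4-iECKO values lay within the Smad4f/f range, at means of 60.0 ± 35.9 and 51.1 ± 4.80 CPM (SD, n = 3 each). The log2 fold change was -0.23 (standard error 0.42) with TMM and -0.023 (standard error 0.89) with endothelial scaling.

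Of the 16 other connexins of the mouse, 4 were tested, 1 with a positive and 3 with a negative log2 fold change (median -0.33, against -0.017 for all genes tested), and 0 were called. Gjd2, the connexin 36 of neuronal electrical synapses, was at 33.4, 68.4 and 47.8 CPM in Smad4f/f replicates 1, 2 and 3 and at 60.9, 13.0 and 49.3 CPM in Smad4-iECKO, lowest in the shallow library. Gje1 was at 6.24 ± 1.77 and 4.31 ± 1.75 CPM (SD, n = 3 each). Gja6, a paralogue of Gja1, was at 0.710, 2.72 and 2.24 CPM against 2.83, 3.25 and 3.51 CPM, higher in every Smad4-iECKO library in CPM and overlapping on the endothelial scale (edgeR unadjusted p = 0.312). Reads that Gja6 and Gja1 share could be counted under either. Gjb5 and Gjb6 had a count of 0 in all 6 libraries.

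**Figure D2:**
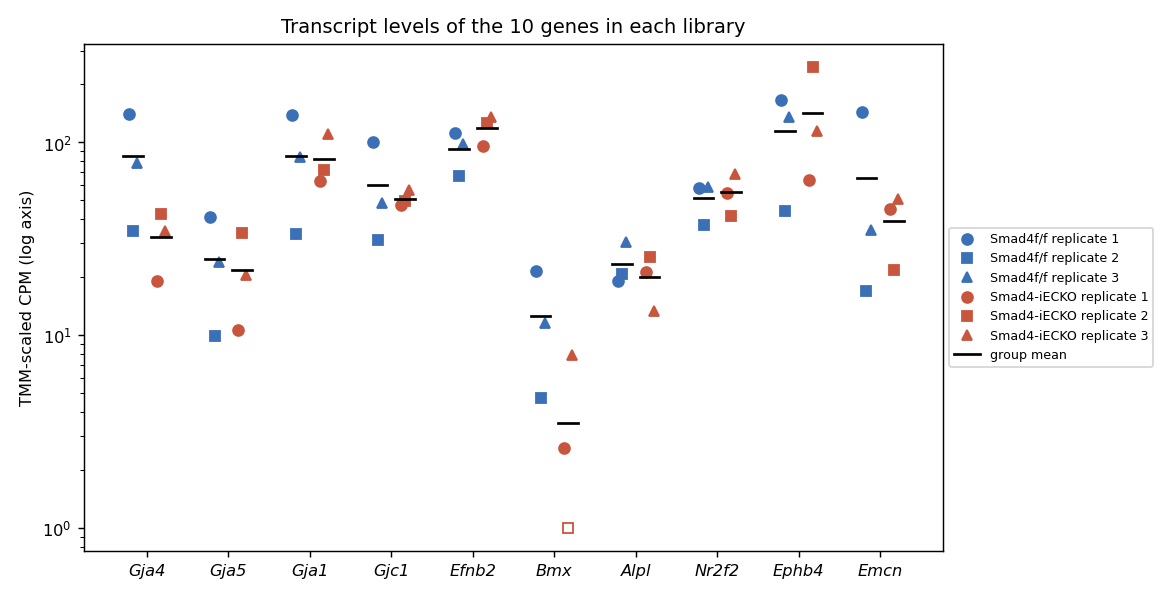
TMM-scaled CPM (log axis) of the 10 genes in each library, with points for libraries (blue Smad4f/f, red Smad4-iECKO, symbols for replicates) and bars for group means. The groups overlap for every gene, and the open square marks the Bmx count of 0 in Smad4-iECKO replicate 2, drawn at 1.

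Efnb2 encodes ephrin-B2, the membrane ligand of arterial endothelium, also made by mural cells and neural retina (chromosome 8, 8617434 to 8661242, minus strand). It was at 112.6, 66.7 and 97.6 CPM in Smad4f/f replicates 1, 2 and 3 and at 95.6, 126.0 and 135.6 CPM in Smad4-iECKO. The groups overlapped, with 2 of 3 Smad4-iECKO libraries above all of Smad4f/f, and Efnb2 averaged 92.3 ± 23.4 and 119.1 ± 20.9 CPM (SD, n = 3 each). The log2 fold change was 0.37 (standard error 0.31) with TMM and 0.30 (standard error 0.91) with endothelial scaling. Alpl, the tissue-nonspecific alkaline phosphatase of arterial and capillary endothelium (chromosome 4, 137741733 to 137796384, minus strand), was at 19.2, 20.7 and 30.4 CPM against 21.4, 25.6 and 13.3 CPM. It overlapped on this scale and on the endothelial scale, with log2 fold changes of -0.23 (standard error 0.38) and -0.39 (standard error 0.89).

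The 3 marker genes Efnb2, Alpl and Nr2f2 varied less between the Smad4f/f libraries than the endothelial list did. From the lowest to the highest Smad4f/f library the endothelial list spanned 5.63-fold, and these genes spanned 1.69-fold, 1.59-fold and 1.57-fold. Gja4, Gja5, Gja1 and Bmx spanned 4.06-fold, 4.13-fold, 4.12-fold and 4.57-fold, Gjc1 3.20-fold, Ephb4 3.76-fold and Emcn 8.46-fold. For Efnb2, Alpl and Nr2f2 the endothelial scale therefore widened the Smad4f/f range, to 49.7 to 167.1 for Efnb2, 8.45 to 51.7 for Alpl and 25.7 to 93.3 for Nr2f2. How much of these transcripts came from other cells of the retina was not tested.

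**Figure D3:**
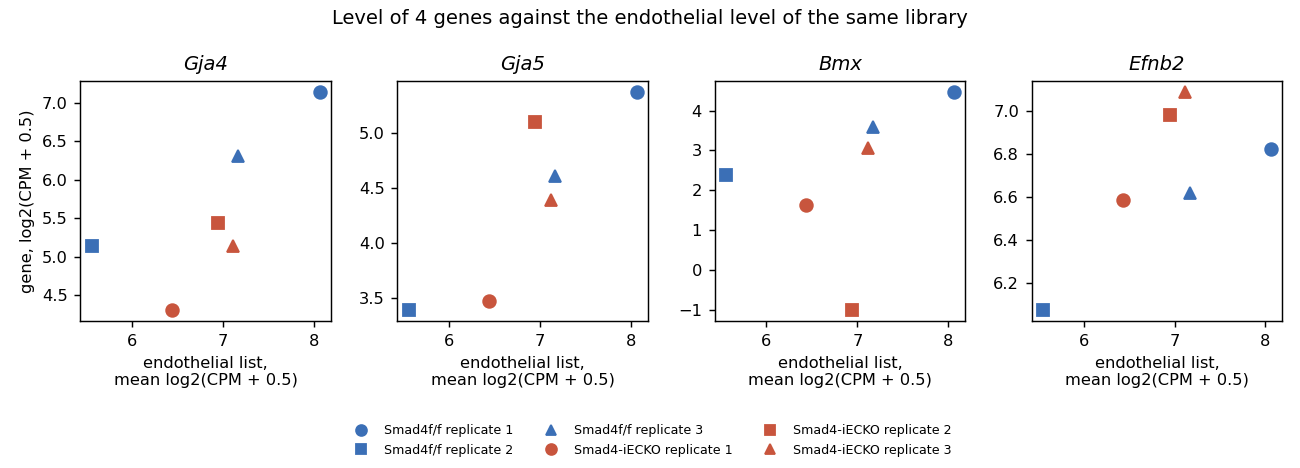
Log2(CPM + 0.5) of Gja4, Gja5, Bmx and Efnb2 against the mean log2(CPM + 0.5) of the endothelial list in the same library (blue Smad4f/f, red Smad4-iECKO, symbols for replicates). The Smad4f/f libraries run from 5.56 to 8.06 on the horizontal axis, and at nearly equal endothelial means of 7.17 and 7.12 Gja4 was at 78.5 CPM in Smad4f/f replicate 3 and at 34.8 CPM in Smad4-iECKO replicate 3.

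Ephb4, the receptor tyrosine kinase of venous endothelium that binds ephrin-B2 (chromosome 5, 137350109 to 137378669, plus strand), was at 165.7, 44.0 and 135.1 CPM in Smad4f/f replicates 1, 2 and 3. Its Smad4-iECKO levels were 63.6, 246.4 and 114.5 CPM, and the shallow replicate 2 held the highest value of all. Ephb4 averaged 115.0 ± 63.3 and 141.5 ± 94.3 CPM (SD, n = 3 each), with log2 fold changes of 0.29 (standard error 0.58) with TMM and 0.51 (standard error 0.91) with endothelial scaling. Without Smad4-iECKO replicate 2 these were -0.39 and -0.094. Scaled to the endothelial list Ephb4 was at 73.1, 110.2 and 110.8 against 86.5, 235.5 and 97.3, so that library alone lay outside the Smad4f/f range.

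Nr2f2 encodes COUP-TFII, the transcription factor that maintains venous identity (chromosome 7, 70351944 to 70366735, minus strand). It was at 58.3, 37.3 and 58.6 CPM in Smad4f/f replicates 1, 2 and 3 and at 55.0, 41.4 and 68.9 CPM in Smad4-iECKO, with overlapping groups and a log2 fold change of 0.11 (standard error 0.32). With endothelial scaling it was 0.052 (standard error 0.89). Emcn encodes endomucin, a sialomucin of veins and capillaries (chromosome 3, 137341067 to 137432185, plus strand). It was at 143.7, 17.0 and 35.1 CPM against 45.0, 21.8 and 51.2 CPM, and Smad4f/f replicate 1 stood far above the others. Its log2 fold change was -0.71 (standard error 0.70) with TMM, -0.096 (standard error 0.89) with endothelial scaling, and 0.61 with TMM without Smad4f/f replicate 1.

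Counted over the genes, none of the 10 was called by edgeR under TMM, where 0% of all genes tested were called, or under endothelial scaling, where it was also 0%. Unadjusted p under 0.05 was reached by 1 of the 10 (Gja4) under TMM, against 1.31% of all genes, and by 0 of the 10 under endothelial scaling, against 0.334%. DESeq2, the alternative, called 0.0611% of genes and none of the 10. Under TMM 7 of the 10 log2 fold changes were negative, where 51.8% of all genes were, with a median of -0.23. Under endothelial scaling 5 of the 10 were negative, where 70.7% of all genes were, with a median of 0.0025 against -0.24 for all genes. The groups did not overlap for 0 of the 10 on the CPM scale, in which 2.49% of genes were higher and 2.83% lower in every Smad4-iECKO library. On the endothelial scale Gja4 and Bmx were lower in every Smad4-iECKO library, where 0.787% of genes were, and 0 of the 10 were higher, where 2.28% of genes were. Also lower in this way were 2 of 21 endothelial, 1 of 18 other arterial and 3 of 10 other venous genes tested. In the same 3 lists 4, 1 and 1 genes were higher in every Smad4-iECKO library. The share over all genes is therefore not the share among vascular genes. Relative to the shifted median of all genes, the log2 fold change under endothelial scaling was -0.90 for Gja4 and -1.27 for Bmx.

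**Figure D4:**
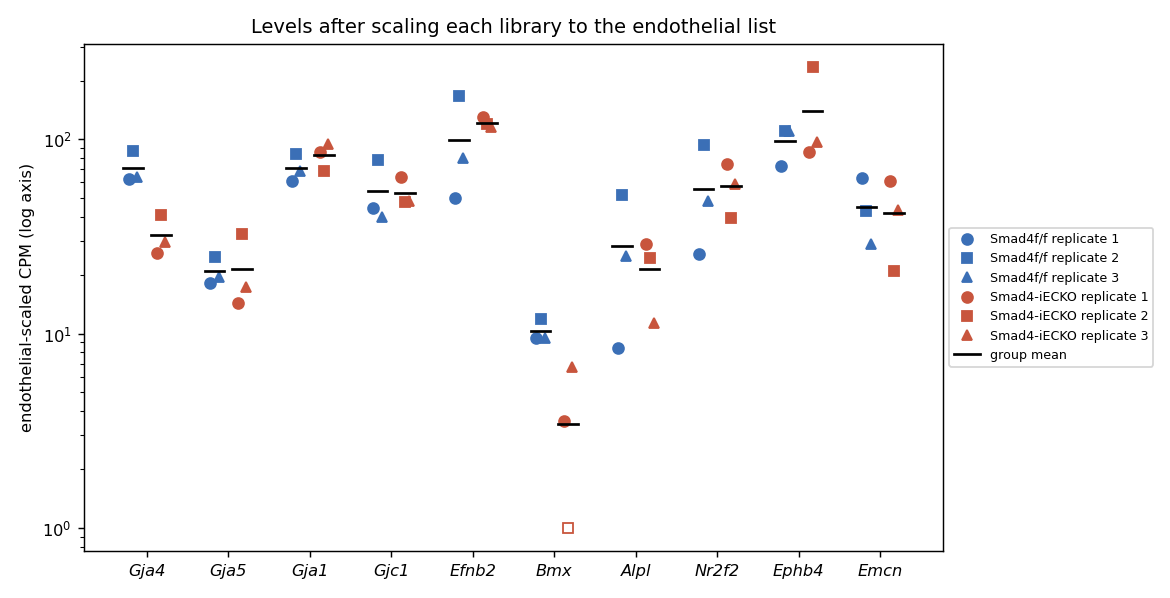
Endothelial-scaled CPM (log axis) of the 10 genes in each library, with points for libraries (blue Smad4f/f, red Smad4-iECKO, symbols for replicates) and bars for group means. The Smad4f/f and Smad4-iECKO points separate for Gja4 (62.1 to 86.9 against 26.1 to 40.9) and Bmx and overlap for the other 8, and the open square marks the Bmx count of 0, drawn at 1.

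**Figure D5:**
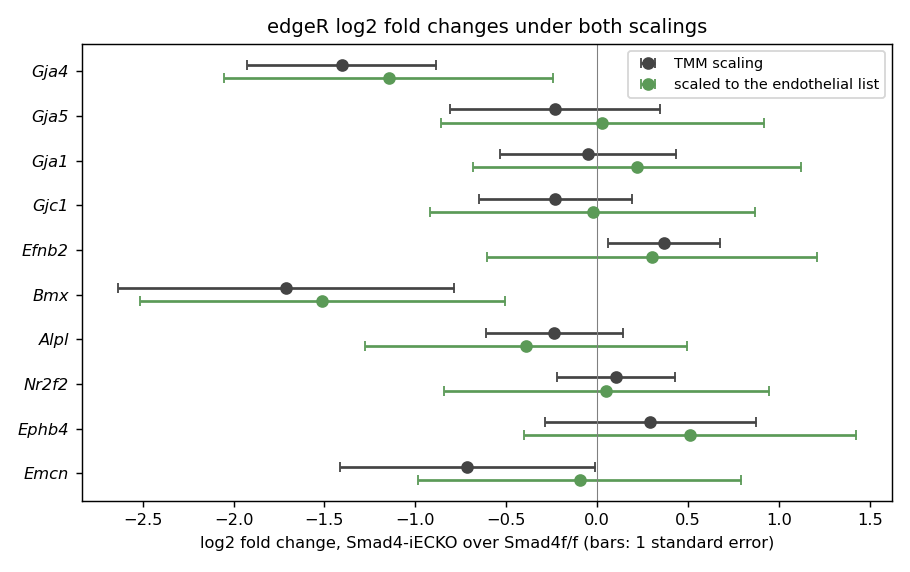
Log2 fold change of Smad4-iECKO over Smad4f/f for the 10 genes by edgeR, with bars of 1 standard error, under TMM scaling (dark) and scaling to the endothelial list (green). Gja4 and Bmx lie farthest below 0 under both, and no gene passed the adjusted threshold.

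The choice of endothelial genes for the scale was checked for each gene, after the values were seen, by taking its ratio to each of the 21 endothelial genes separately. Gja4 was lower in every Smad4-iECKO library against 14 of the 21 genes and overlapped for the other 7. Bmx was lower against 17, and overlapped for the other 4. Gja5 was lower against 1, Gja1 was lower against 1 and higher against 3, Ephb4 and Emcn were each higher against 1, and Gjc1, Efnb2, Alpl and Nr2f2 overlapped for all 21. The 21 ratios of a gene share its own values and the same libraries. The same counts were not computed for all genes tested, so how unusual 14 or 17 of 21 is cannot be told.

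Ratios of arterial to venous genes within a library reuse the values of Gja4, Gja5, Efnb2 and Bmx given above, so they are not separate evidence. The share of all genes whose ratio to Ephb4 or Emcn does not overlap was not computed. The log2 ratio of Gja4 to Ephb4 in CPM was -0.23, -0.34 and -0.78 in Smad4f/f replicates 1, 2 and 3 and -1.70, -2.51 and -1.70 in Smad4-iECKO, a difference of -1.52 with no overlap. The ratio of Gja5 to Ephb4 was different by -0.42 on average and overlapped. Efnb2 to Ephb4, the ligand over its receptor, was at -0.14 ± 0.64 and -0.046 ± 0.814 (log2, SD, n = 3 each), a difference within the spread. Bmx to Ephb4 was lower in each Smad4-iECKO library, at -4.37 and -3.78 in replicates 1 and 3 against -2.91 to -3.49 in Smad4f/f. Against Emcn the ratios of Gja4, Gja5, Efnb2 and Bmx all overlapped.

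Levels were compared between genes as CPM per kilobase of the gene's merged exons. In Smad4f/f the means ran in the order Gja4 (50.3), Ephb4 (24.8), Efnb2 (13.5), Emcn (12.1), Gjc1 (11.999), Gja1 (8.31), Nr2f2 (5.96), Alpl (5.81), Gja5 (4.35) and Bmx (4.09). Gja4 exceeded Ephb4 in each Smad4f/f library, at 83.6 against 35.7, 20.6 against 9.49 and 46.6 against 29.1 CPM per kilobase in replicates 1, 2 and 3. In each Smad4-iECKO library Ephb4 exceeded Gja4, at 13.7 against 11.4, 53.1 against 25.4 and 24.7 against 20.7 CPM per kilobase. This switch appears only after division by exon length (1685 bases for Gja4, 4640 for Ephb4). In CPM Gja4 lay below Ephb4 in every library, at log2 ratios of -0.23, -0.34 and -0.78 in Smad4f/f. The switch restates the ratio of Gja4 to Ephb4 given above and is not separate evidence. The ranges over the Smad4f/f libraries of neighbours in the Smad4f/f order overlapped, those of Gja4 and Ephb4 included. In Smad4-iECKO the order by mean was Ephb4 (30.5), Gja4 (19.2), Efnb2 (17.4), Gjc1 (10.2), Gja1 (8.001), Emcn (7.28), Nr2f2 (6.39), Alpl (4.98), Gja5 (3.77) and Bmx (1.13).

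The title prefix of a sample (Lit38 or Lit40), which the labels do not explain, was used as a possible batch, with 2 libraries per group under 38 and 1 per group under 40. For Gja4 the log2 difference of Smad4-iECKO from Smad4f/f in CPM was -2.001 within prefix 38 and 0.30 in the prefix 40 pair. Scaled to the endothelial list it was -1.17 within prefix 38 and -1.08 in the prefix 40 pair. For Gja5 the log2 differences were -1.06 and 1.72 in CPM, and -0.24 and 0.37 on the endothelial scale. For Ephb4 they were -0.81 and 2.47 in CPM, and 0.027 and 1.09 on the endothelial scale. Bmx was lower under both prefixes on both scales. The prefix 40 pair, 1 library per group, holds the shallowest library and the one with the least endothelial RNA. An interaction of genotype and prefix, added after the values were seen, was called by edgeR for Ephb4 (log2 difference 3.24, adjusted p = 0.0436) and not for Gja4 (2.32, adjusted p = 0.0947) or Gja5 (2.84, adjusted p = 0.0735), where 3.84% of all genes were called. With 1 library per group under prefix 40, which also differ in endothelial level, these p-values do not show a difference between prefixes. The 3 genes Gja4, Gja5 and Ephb4 lay lower without overlap under prefix 38 and higher in the prefix 40 pair, as did 8.96% of all genes tested.

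Other arterial and venous genes, from lists of genes not among the 10, were described by their counts and medians. Of 20 other arterial genes 18 were tested, 7 with positive and 11 with negative log2 fold changes, 0 called, and a median of -0.32 against -0.017 for all genes. With endothelial scaling the counts were the same and the median was -0.13 against -0.24 for all genes, so the list lay below that median on the first scale and above it on the second. The Notch receptor gene Notch4 was at 272.0, 72.1 and 247.2 CPM in Smad4f/f and 162.9, 944.5 and 309.9 CPM in Smad4-iECKO, highest in the shallow library. Its endothelial-scaled levels were 119.98, 180.6 and 202.7 against 221.5, 903.0 and 263.4, higher in every Smad4-iECKO library. Its ligand Dll4 was at 80.4 ± 28.8 and 134.7 ± 54.8 CPM (SD, n = 3 each). The arterial transcription factor gene Sox17 was at 147.2, 20.5 and 58.2 CPM against 20.3, 43.7 and 38.2 CPM, and on the endothelial scale at 64.9, 51.3 and 47.7 against 27.6, 41.8 and 32.5, lower in every Smad4-iECKO library. The matrix inhibitor of calcification Mgp was at 59.95 ± 70.9 and 27.3 ± 14.2 CPM.

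Of 13 other venous genes 10 were tested, 6 with positive and 4 with negative log2 fold changes, 0 called, and a median of 0.11 with TMM and 0.098 with endothelial scaling. The amino acid transporter gene Slc38a5 was at 103.2, 65.4 and 95.9 on the endothelial scale in Smad4f/f and at 16.9, 29.8 and 21.2 in Smad4-iECKO (log2 fold change -1.97, edgeR unadjusted p = 0.0342, not called after adjustment). The adhesion molecule gene Vcam1 and the apelin receptor gene Aplnr were also lower on this scale in every Smad4-iECKO library, at 8.01 ± 5.01 against 15.5 ± 3.04 and at 198.6 ± 60.3 against 305.2 ± 32.1. Icam1, another adhesion molecule gene, was higher in every one, at 40.01 ± 25.0 against 14.8 ± 2.80 (SD, n = 3 each).

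Of 20 other ephrins and Eph receptors 19 were tested, 13 with positive and 6 with negative log2 fold changes, 0 called, and a median of 0.14. With endothelial scaling this turned to 6 positive and 13 negative, at a median of -0.20 against -0.24 for all genes. Epha2, a receptor of ephrin-A1, was at 63.2, 26.9 and 54.5 CPM in Smad4f/f replicates 1, 2 and 3 and at 70.8, 117.6 and 88.3 CPM in Smad4-iECKO (edgeR unadjusted p = 0.0363). It was higher in every Smad4-iECKO library on both scales. The kinase-dead receptor gene Ephb6 was at 18.2 ± 3.03 and 38.3 ± 13.9 CPM, higher in every Smad4-iECKO library in CPM and overlapping on the endothelial scale. Ephb3 was at 21.5 ± 9.73 and 34.2 ± 11.8 CPM, and Efna1, the ligand ephrin-A1, at 43.7 ± 35.1 and 28.3 ± 11.98 CPM (SD, n = 3 each).

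The genes whose profile over the 6 libraries was most like each of the 10 were found among 11998 genes by the root mean square difference of centred log2(CPM + 0.5). For Gja4 they were Apcdd1 (0.15), Tnfsf10 (0.20) and Bvht (0.22), and for Gja5 Igfbp4 (0.085), Tfeb (0.12) and Enpep (0.14). For Gja1 the most like was Itga6 (0.078), for Gjc1 Fermt2 (0.11), for Ephb4 Pear1 (0.082) and for Emcn Lxn (0.11). For Efnb2 it was Gpr153 (0.064), for Nr2f2 Jak1 (0.069), for Alpl Otulin (0.13) and for Bmx Ogn (0.35). The Bmx profile includes the count of 0 in the shallow Smad4-iECKO replicate 2, where the 0.5 added sets its value. Among the 10 themselves the pairs most alike were Gja1 with Gjc1 (0.28), Gja5 with Ephb4 (0.28) and Efnb2 with Nr2f2 (0.29). All profiles share the same 6 libraries and their endothelial content.

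Of the 14225 genes with an adjusted p in the authors' deposited table, 13.4% had one under 0.05, and among them were 2 of the 10. The authors' deposited table gave Gja4 a log2 fold change of -1.15 (standard error 0.26, adjusted p = 0.000403) and Bmx -1.04 (standard error 0.34, adjusted p = 0.0224). Efnb2 stood in the authors' deposited table at 0.36 with an adjusted p of 0.0564, and the other 7 genes at an adjusted p from 0.263 to 0.932. The count table held 3 columns per sample that did not differ in any gene. DESeq2 run here on all 18 columns as if each were a sample gave an unadjusted p of 9.08e-06 for Gja4, where the authors' deposited table has 9.43e-06. With 1 column per sample DESeq2 gave an unadjusted p of 0.0105 and an adjusted p of 0.99956.

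The count table gives gene totals, and 3 of the 10 genes share exon bases with a gene on the opposite strand in GENCODE M21: Gja5 with Gpr89 (165 of 5746 exon bases), Nr2f2 with B130024G19Rik (643 of 8625) and Ephb4 with Zan (33 of 4640). The library kit does not mark the strand, so reads in those bases cannot be told apart.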

How the data were processed

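Bulk RNA-seq libraries were made from total RNA with an unstranded Illumina TruSeq v2 kit, per the labels' protocols. STAR, DESeq2 and mm10 are named in the submitters' processing notes, without versions; the counting tool is not given in the sources used here. The authors deposited raw read counts per gene in 18 columns, 3 identical ones per sample, of which 1 was used. Their second deposited table compares the groups and holds, per the file headers, each gene's mean normalized signal, log2 fold change and standard error, the test statistic as a score, and a p-value, raw and adjusted.

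Groups follow the genotype label, and replicates are numbered in accession order. The main test was edgeR 4.0.16 (R 4.3.3): TMM, filterByExpr (minimum count 10, minimum total 15), quasi-likelihood F test, Benjamini-Hochberg threshold 0.05. The standard error is the log2 fold change over the square root of F. A second fit scaled each library to 21 endothelial genes. DESeq2 1.42.0 and limma 3.58.1 (voom) were alternatives. The pseudocount was 0.5 CPM. A count of 3 is 1.39 CPM in Smad4-iECKO replicate 2 and 0.123 to 0.239 CPM elsewhere. The tests were tried on simulated counts drawn from the same mean profile in all libraries. That trial therefore did not cover libraries that differ in endothelial content. Genes and lists were chosen with earlier results of these data known; up to 4 genes per list were named by smallest edgeR p, and some listed genes are not reported here. Figures used matplotlib 3.10.9.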

Additional observations from a re-analysis of the deposited data

Results flagged for a closer look

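For 3 of the 10 genes the CPM of both Smad4-iECKO libraries with title prefix 38 lay below both Smad4f/f libraries of that prefix, while in the prefix 40 pair the Smad4-iECKO library lay above; 8.96% of all genes tested showed this pattern. The log2 fold change under prefix 40 minus that under prefix 38 was 2.32 for Gja4 (edgeR interaction, adjusted p = 0.0947), 2.84 for Gja5 (edgeR, adjusted p = 0.0735) and 3.24 for Ephb4 (edgeR, adjusted p = 0.0436). In the prefix 40 pair the endothelial list had a mean log2 CPM of 5.56 (Smad4f/f) and 6.95 (Smad4-iECKO). On the endothelial scale the opposite directions remained for Gja5 (-0.24 and 0.37) and not for Gja4 (-1.17 and -1.08) or Ephb4 (0.027 and 1.09). The prefix 40 effect rests on 1 library per group, and 3.84% of all genes had a called interaction, so these values do not show a difference between prefixes.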

How the results depend on the processing

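Without endothelial scaling edgeR with TMM called 0 genes (188 at an unadjusted p under 0.05) and limma-voom with quality weights 8 (782). DESeq2, with its own size factors, called 12 (425). DESeq2 on all 18 columns, which adds copies of the same samples, called 2235. Under that setting alone were Gja4 and Bmx called. With endothelial scaling the count was 0 in the main analysis, 2 within title prefix 38 and 3 with DESeq2. Leaving out 1 library gave 0 to 0 called genes with TMM and 0 to 3 with endothelial scaling (3 without Smad4f/f replicate 2). The cause was not tested.

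The sign of the log2 fold change reversed with TMM under voom for Gja1 (0.20), Gjc1 (0.14), Ephb4 (-0.31) and Emcn (0.52), under a title prefix block for Gja1 (0.12) and within prefix 38 for Ephb4 (-0.77). With endothelial scaling it reversed under the block for Gja5 (-0.039) and Gjc1 (0.044), and within prefix 38 for Smad4 (0.70), Gja5 (-0.25), Gjc1 (0.42), Alpl (0.28), Ephb4 (-0.00069) and Emcn (0.18). Leaving out 1 library gave, with TMM, Gja5 -0.71 to 0.32, Gja1 -0.44 to 0.48, Gjc1 -0.54 to 0.35, Nr2f2 -0.091 to 0.25, Ephb4 -0.39 to 0.64 and Emcn -1.17 to 0.61. With endothelial scaling it gave Smad4 -1.02 to 0.51, Gja5 -0.39 to 0.25, Gjc1 -0.20 to 0.34, Efnb2 -0.020 to 0.91, Alpl -0.83 to 0.37, Nr2f2 -0.29 to 0.65, Ephb4 -0.094 to 0.76 and Emcn -0.48 to 0.24. Gja4 stayed negative in these runs, from -1.78 (without Smad4f/f replicate 2) to -0.83 (without Smad4f/f replicate 1) with TMM and from -1.35 to -0.98 with endothelial scaling. Bmx ran from -2.90 to -1.09 and from -2.38 to -1.003. The other settings, Smad4 included, kept the direction and call of 69 results without endothelial scaling, while 6 reversed and 2 became called. With endothelial scaling 36 were kept, 8 reversed and 0 became called. No gene was called in the main analysis, so keeping the call says little. No paired analysis by replicate number was possible because the replicate numbers follow accession order and pair no samples; the title prefix was fitted as a block instead. Under that block edgeR gave Gja4 -1.30 and Bmx -2.09 with TMM, and the edgeR adjusted p was 0.998 for both. Depth limits Smad4-iECKO replicate 2 most, with 2233360 counts.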
